A study of Homo sapiens with 36 samples.

Results

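The effect of the first siRNA against SCD was measured in 501mel, a human melanoma cell line with pigment cell features. The comparison holds 6 of the 36 libraries of the series: 3 treated with the siRNA labelled siSCD#1 and 3 treated with its control siRNA, titled siCTR_1 here. These 6 were chosen by their labels, and the spike-in rows of the table (synthetic RNAs added to each sample) were set aside, which left 13066 genes. The series compared 2 SCD siRNAs and an SCD inhibitor (SCDi, labelled A939372) with their controls in 501mel and in a second melanoma line, IGR37, with 3 libraries in each of 12 groups. All groups were grown in RPMI with 10% FBS under 10% CO2, without further genetic change named in the labels. Each siRNA was given at 20 nM for 48 hours and the inhibitor at 1 uM for 48 hours, with DMSO as its control. Libraries were made from 500 ng of RNA by QuantSeq Forward, which reads the 3' end of polyadenylated transcripts, so that a value counts transcripts without regard to their length. The labels do not say whether the 3 libraries of a group came from separate cultures. The p-values below therefore reflect the spread among libraries alone, pooled over the groups fitted together, those of IGR37 included.

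SCD, stearoyl-CoA desaturase, is an enzyme of the endoplasmic reticulum (ER) membrane that puts the first double bond into stearic and palmitic acid and so makes oleic and palmitoleic acid. Membranes rich in saturated acyl chains are known to trigger the unfolded protein response, in which the ER sensors PERK, IRE1 and ATF6 raise ATF4, XBP1 and the ER chaperones. MITF is the transcription factor that sets the pigment cell identity of melanocytes and of many melanomas. The study's question is which genes change when SCD mRNA is lowered in such cells. Levels below are log2 CPM, the log2 of read counts scaled to a common library size (CPM). Changes are differences of mean log2 CPM, siSCD#1 minus control, ± standard error (SE), from limma fitted on all 12 libraries of the table. Adjusted p-values are by Benjamini-Hochberg over the 13066 genes, and a gene "rose" or "fell" where that value was under 0.05, with n = 3 libraries a group.

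The targeted transcript was lower in each treated library. SCD read 9.80, 9.81 and 9.75 log2 CPM in the 3 control libraries and 6.83, 7.06 and 6.93 in the 3 siSCD#1 libraries. The groups lie far apart, and the spread within each is small beside that distance. The change was -2.85 ± 0.07, adjusted p = 3.63e-13, and SCD (ENSG00000099194.5, chromosome 10, 100347124 to 100364834, plus strand, hg38) ranked among the 12 largest falls. With limma fitted on the 6 libraries alone, the same change had adjusted p = 3.19e-05, and 2506 genes rose and 2769 fell. In IGR37 the same siRNA gave -2.67 ± 0.07, and the difference between the lines, -0.18 ± 0.10, adjusted p = 0.212, did not pass. With the second siRNA in 501mel, in libraries of a separately normalised table, SCD changed by -4.33 ± 0.16, and with the inhibitor by 0.29 ± 0.16, which did not pass the test in its table.

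Beyond its target, siSCD#1 was accompanied by changes in a large share of the measured transcriptome. Of 13066 genes, 2733 rose, which is 20.9%, and 2881 fell, which is 22.0%. Each count of list members for siSCD#1 in 501mel below is to be read beside these shares. At least 2-fold rises numbered 1047 (8.01%) and 2-fold falls 625 (4.78%). The 3 treated libraries lay above all 3 controls for 3429 genes (26.2%) and below them for 3527 (27.0%). The median change over all genes was 0.01. Rises made up 48.7% of these calls. When libraries were scaled to their spike-ins instead, the median moved to -0.23 and rises made up 24.7% of the calls, so the balance of rises and falls depends on the scaling. The spike-ins did not move together. Of 29 with at least 100 reads a library on average, 8 were lower by over 1 and 14 higher by over 0.5 after siSCD#1. Their sum is therefore an uncertain reference, here and wherever spike-in scaling is given below. Control library 1 differed more from controls 2 and 3 (chi-square per degree of freedom of 5.09 and 3.13 over genes) than these did from each other (1.94), and without it 2267 genes rose and 2458 fell. Of the genes named below as changed, ACLY, B2M, MDM2, MRPL33, RPL30, S100B, SMC4 and ZEB2 did not pass under spike-in scaling, and CALR, FARSA, KEAP1, PRDX6 and SLC7A5 did not pass under quantile normalisation. MDM2 also did not pass without control library 1 or 3 or treated library 2 or 3. KEAP1 did not pass under 10 of 23 alternatives, among them leaving out any 1 library of the comparison but treated library 2, FARSA did not pass without control library 1 or treated library 3, and the 501mel change of PPM1K did not pass without any single one of the 6 libraries.

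Among genes whose mean level reached the median, the 12 largest rises were CHAC1 (3.57 ± 0.23), which degrades glutathione, DDIT3 (3.39 ± 0.11), the stress factor CHOP, GTPBP2 (3.23 ± 0.62), FABP7 (3.17 ± 0.27), a fatty acid carrier, SESN2 (3.15 ± 0.12), an inhibitor of mTORC1, DNAJB9 (3.04 ± 0.16), an ER co-chaperone, NUPR1 (2.91 ± 0.12), KAT2B (2.78 ± 0.30), a lysine acetyltransferase, ATXN2L (2.75 ± 0.40), HERPUD1 (2.70 ± 0.12), which serves ER-associated degradation, ASNS (2.61 ± 0.11), asparagine synthetase, and TSC22D3 (2.42 ± 0.13). CHAC1 read 4.21, 2.80 and 3.35 log2 CPM in the 3 control libraries and 6.88, 7.08 and 7.11 in the 3 siSCD#1 libraries. DDIT3 stood at 4.21, 4.12 and 4.20 log2 CPM in the controls and at 7.51, 7.54 and 7.64 after siSCD#1. In both genes each treated library exceeded each control by a wide margin, with adjusted p = 9.63e-09 and 1.24e-11. The mean level was taken over all libraries of the table, treated and IGR37 ones included, and its median over genes was 4.255 log2 CPM. Every control library of both genes read below that value, so a gene scarce in the controls could reach the median.

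Of the 12, 4 genes (FABP7, GTPBP2, KAT2B and ATXN2L) also differed by over 1 between libraries 2 and 3 of the siSCD#1 group in IGR37. GTPBP2 read 3.05, 4.16 and 4.63 log2 CPM in the 3 control libraries and 7.33, 7.08 and 7.13 in the 3 siSCD#1 libraries. The levels of FABP7 were 2.85, 3.25 and 3.24 log2 CPM with siCTR_1 and 6.44, 5.99 and 6.42 with siSCD#1. The spread among controls was wide for GTPBP2, where library 1 lay lowest. Of the 100 genes with IGR37 siSCD#1 library 3 above library 2 by over 1, 52 rose and 6 fell in 501mel, against 23.6% and 34.8% of all 6533 genes whose level reached the median, and control library 2 exceeded control library 1 by a median of 0.45 in them. Without control library 1 the change of GTPBP2 was 2.78 (adjusted p = 0.00469), that of KAT2B 2.40 (adjusted p = 5.82e-06), that of FABP7 3.04 (adjusted p = 2.99e-06) and that of ATXN2L 2.74 (adjusted p = 0.000326), so all 4 still passed. The part of the library differences in these rises was not tested.

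The 12 largest falls came from varied processes and included AKR7A2 (-3.27 ± 0.11), an aldehyde reductase, GINS1 (-3.11 ± 0.12), a subunit of the replicative helicase, SCD itself, MYLK3 (-2.57 ± 0.22), TPGS2 (-2.52 ± 0.16), SHISA5 (-2.46 ± 0.11), PPIF (-2.42 ± 0.08), the mitochondrial cyclophilin, FAM83D (-2.40 ± 0.12), STAT3 (-2.36 ± 0.20), a transcription factor downstream of cytokine receptors, APEX2 (-2.31 ± 0.14), a DNA repair nuclease, and NR4A3 (-2.26 ± 0.11). AKR7A2 read 7.45, 7.28 and 7.35 log2 CPM in the 3 control libraries and 4.23, 4.20 and 3.86 in the 3 siSCD#1 libraries. The levels of STAT3 were 7.05, 6.69 and 6.80 log2 CPM with siCTR_1 and 4.0, 4.64 and 4.82 with siSCD#1. The groups of both genes are widely separated. With siSCD#2 the changes of these genes were 0.05 ± 0.10 and 0.33 ± 0.18, which did not pass, while in IGR37 siSCD#1 gave -2.27 ± 0.11 and -1.65 ± 0.20, both past the threshold.

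These falls shared letters in their 3' untranslated regions (3'UTRs), the part of an mRNA that small RNAs can pair with through a short seed. The 7-base word GCTTCCT, which comes from an earlier account of these data, stood in the annotated 3'UTR of 10 of the 12 largest falls, and in 1 of the 12 largest rises. CTTCCTA, the word 1 base further along in GCTTCCTA, was searched in addition and stood in 8 and 0 of them. Either word stood in all 12 of these falls, GINS1 and APEX2 holding CTTCCTA only, against 25.3% of all scored genes. As GCTTCCT came from an account of these same data, these shares describe the falls and are no independent support for the word. Below, the 29 bases around a word are shown for MITF and for 6 of the largest falls because they hold the shared letters. Capitals mark the word, and each sequence runs 5' to 3' on the strand of its gene, read from GENCODE 29 transcripts on hg38.
SCD: ccacatagcatGCTTCCTttctctcctgg
AKR7A2: ttatttttctaGCTTCCTgccttgctccc
SHISA5: ctgtatatgtgGCTTCCTctgatgctgac
PPIF: cccaccacattGCTTCCTaatacccaccc
STAT3: ttaagcattcaGCTTCCTtcaggctggta
GINS1: tgtacactattCTTCCTActcttttttgg
MITF: tcgcacaaactGCTTCCTttcttgattcg
The windows lie at chr10:100361587-100361615 (plus strand), chr1:19304077-19304105 (minus), chr3:48468934-48468962 (minus), chr10:79354004-79354032 (plus), chr17:42314793-42314821 (minus), chr20:25446174-25446202 (plus) and chr3:69965270-69965298 (plus). In SCD the word begins at base 665 of a 3'UTR of 3901 bases, and in MITF at base 33 of 3088. GINS1 holds CTTCCTA in the window shown.

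Over 11172 genes with a 3'UTR of at least 100 bases, 17.9% held GCTTCCT. The share was 24.7% of the genes that fell, 13.9% of those that rose and 16.7% of those not called. Of the holders 30.9% fell, and of the other genes 20.5%. Of genes whose mean level reached the median, 15 of 19 that fell at least 4-fold held the word, 45.4% of the 249 that fell 2- to 4-fold, 19.7% of those that fell less, and 12.9% of those that rose at least 2-fold. Over all levels the word stood in 29 of 68 that fell at least 4-fold, in 40.5% of the 430 that fell 2- to 4-fold and in 20.7% of those that fell less, so that the share over all levels was about the same in the first and second of these classes. CTTCCTA alone stood in 13.1% of scored genes, in 15.5% of those that fell and in 10.9% of those that rose, with a median change of -0.05 in its holders and 0.03 in the others.

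Holders had longer 3'UTRs, with a median of 2667 bases against 1011. The median change of holders and of other genes was -0.40 and -0.02 in the class of shortest 3'UTRs (100 to 706 bases), -0.25 and 0.06 in the middle class and -0.05 and 0.13 in the longest class, so holders lay lower in each class. In IGR37 the medians of holders and others were -0.10 and 0.01 with siSCD#1. With siSCD#2 in 501mel they were 0.01 and -0.02, and with the inhibitor both 0.00. The labels give no siRNA sequence, so the word could not be set against that of siSCD#1, and the part of the siRNA's own sequence in these falls was not tested. MITF holds the word, and of its list of pigment cell genes 4 of 36 scored members do.

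**Figure D1:**
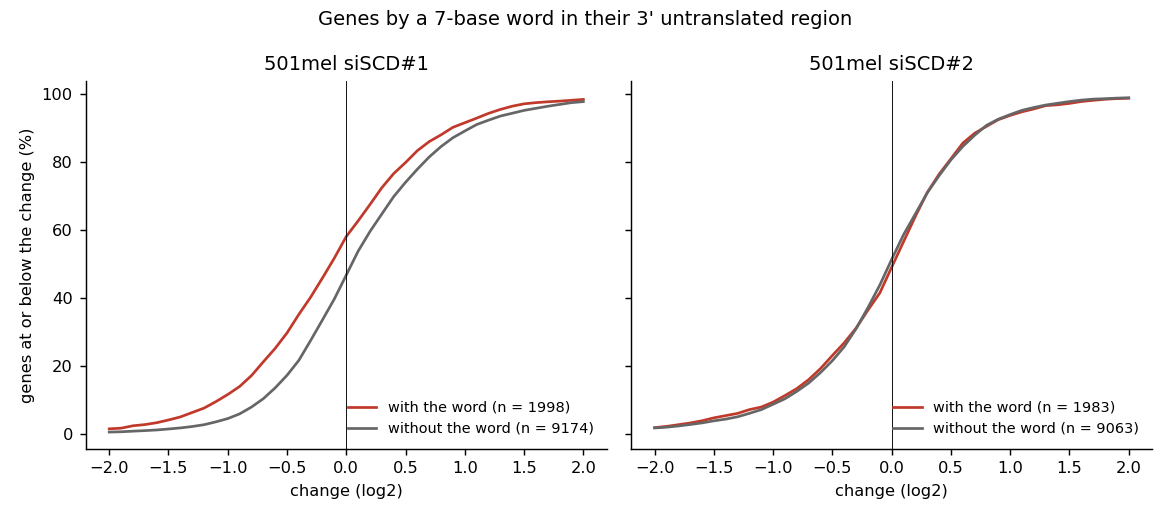
The percent of genes at or below each log2 change is drawn for genes with and without GCTTCCT in their 3'UTR, in one panel per comparison. With siSCD#1 in 501mel the curve of the holders lies to the left, with a median of -0.12 against 0.05, and with siSCD#2 the curves lie close, with medians of 0.01 and -0.02.

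ATF4 target genes rose with siSCD#1. ATF4 is translated when the kinases PERK, GCN2, PKR or HRI phosphorylate eIF2, and it then switches on amino acid synthesis, uptake and stress factors. Of 46 measured members of the list, 33 rose and 2 fell, with a median of 1.09, against 20.9% and 22.0% of all genes and a median of 0.01 (27 rises and 5 falls under spike-in scaling). Among the kinases, EIF2AK3, which encodes PERK, rose by 1.26 ± 0.09, adjusted p = 4.47e-08, and EIF2AK1 changed by 0.03 ± 0.08, which did not pass. Of 8 transcription factors 7 rose. ATF4 read 8.92, 8.67 and 8.69 log2 CPM in the 3 control libraries and 9.72, 9.81 and 9.98 in the 3 siSCD#1 libraries. All treated libraries exceed all controls by more than the spread in either group (1.07 ± 0.09, adjusted p = 1.65e-07). The levels of NUPR1 were 4.44, 4.18 and 4.03 log2 CPM with siCTR_1 and 6.98, 7.16 and 7.25 with siSCD#1. NUPR1 is a stress-induced chromatin cofactor, and its groups do not overlap.

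The targets rose across their roles. Of 11 amino acid enzymes, 8 rose, and the levels of ASNS were 4.91, 4.52 and 4.66 log2 CPM with siCTR_1 and 7.12, 7.31 and 7.48 with siSCD#1. GPT2, alanine aminotransferase, rose by 1.60 ± 0.09, adjusted p = 1.84e-09. SESN2 and DDIT4, both of which restrain mTORC1, belong to a class in which 5 of 6 rose. DDIT4 read 6.99, 6.64 and 6.73 log2 CPM in the 3 control libraries and 8.96, 9.15 and 8.98 in the 3 siSCD#1 libraries. The control and treated libraries of DDIT4 are more than a doubling apart (2.25 ± 0.10, adjusted p = 1.12e-10). Of 8 transporters 5 rose, among them SLC7A11, the cystine importer (1.93 ± 0.13, adjusted p = 1.53e-08), and its partner SLC3A2 (0.95 ± 0.07, adjusted p = 2.91e-08), and 2 fell. The ones that fell were SLC7A5 (-0.46 ± 0.10, adjusted p = 0.00134), an importer of large neutral amino acids, and SLC1A4 (-0.76 ± 0.10, adjusted p = 1.31e-05), a carrier of small neutral ones. GDF15, a secreted stress hormone, rose by 1.87 ± 0.07, adjusted p = 2.25e-11, and VEGFA by 1.15 ± 0.12, adjusted p = 2.26e-06. JDP2 rose by 2.92 ± 0.20, adjusted p = 1.76e-08 and SQSTM1, an autophagy receptor, by 1.34 ± 0.07, adjusted p = 8.45e-10.

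The 300-base promoter windows of these genes (250 before to 50 after the start, RefSeq on GRCh38.p14) were searched on both strands for TGATGNAA, the core of the C/EBP-ATF element that ATF4 binds. It stood in 2.83% of the windows of 9775 matched genes, in 3.81% of the genes that rose, in 1.96% of those that fell and in 10 of 35 matched members of the ATF4 list. Shown are 3 of those whose genes are among the largest rises, with the match in capitals and each read 5' to 3' on the gene's strand. In CHAC1 and HERPUD1 the match lies on the opposite strand.
CHAC1: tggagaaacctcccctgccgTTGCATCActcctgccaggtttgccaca
ASNS: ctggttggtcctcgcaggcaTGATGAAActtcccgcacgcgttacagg
HERPUD1: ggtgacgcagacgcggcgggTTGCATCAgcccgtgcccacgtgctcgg
They lie at chr15:40953242-40953289 (plus), chr7:97872449-97872496 (minus) and chr16:56931946-56931993 (plus). A match is a description of letters and not of binding.

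**Figure D2:**
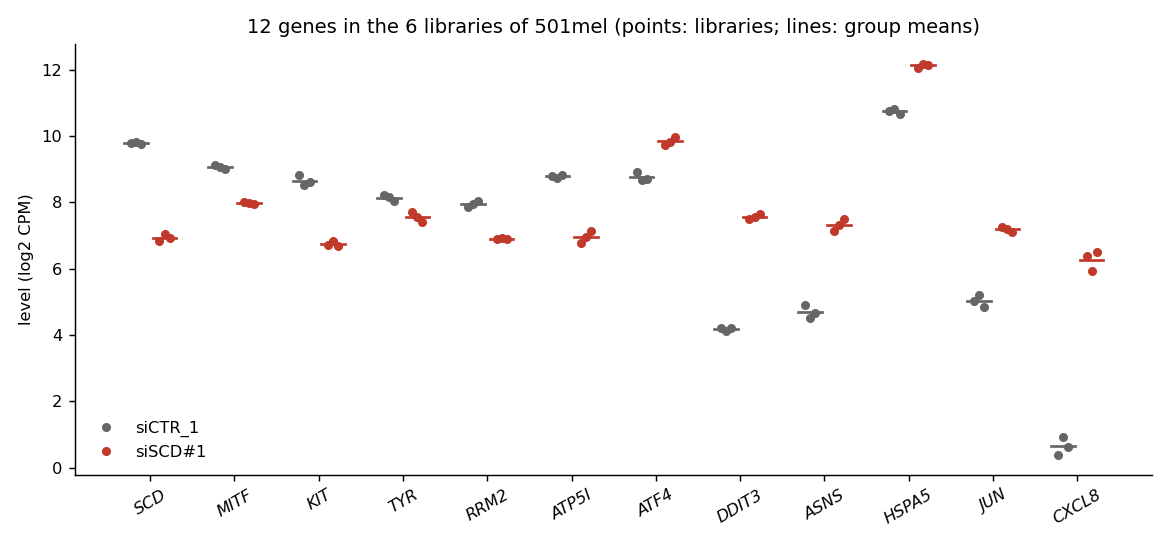
Levels in log2 CPM of 12 genes in the 3 siCTR_1 and 3 siSCD#1 libraries of 501mel (points: libraries, lines: group means). SCD, MITF, KIT, TYR, RRM2 and ATP5I are lower and ATF4, DDIT3, ASNS, HSPA5, JUN and CXCL8 higher in all 3 treated libraries.

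Genes of ER protein folding and disposal rose as well, with 32 of 43 measured members higher, 3 lower and a median of 0.69. XBP1 and ATF6, factors of the unfolded protein response, rose by 1.31 ± 0.08, adjusted p = 2.7e-09, and 0.84 ± 0.09, adjusted p = 2.33e-06. Of 19 chaperones and folding enzymes 13 rose and 3 fell. HSPA5 read 10.75, 10.80 and 10.67 log2 CPM in the 3 control libraries and 12.04, 12.18 and 12.15 in the 3 siSCD#1 libraries. HSPA5 is BiP, the main ER chaperone, and its treated libraries all lie above its controls (1.38 ± 0.08, adjusted p = 1.92e-09). The levels of DNAJB9 were 3.91, 4.33 and 3.63 log2 CPM with siCTR_1 and 7.0, 6.94 and 7.07 with siSCD#1. Against this direction, CALR fell by 0.38 (adjusted p = 0.000147), and PDIA6 fell by 0.46 (adjusted p = 1.74e-05). CALR binds calcium and glycoproteins, and PDIA6 is a disulfide isomerase. P4HB changed by 0.04 ± 0.08, which did not pass.

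Of 19 genes of ER-associated degradation and secretion, 16 rose and 0 fell. HERPUD1 stood at 5.38, 5.97 and 5.75 log2 CPM in the controls and at 8.35, 8.35 and 8.49 after siSCD#1. VIMP, a selenoprotein of the retrotranslocation complex, rose by 1.32 ± 0.09, adjusted p = 2.77e-08. With siSCD#2 3 of the chaperones rose and 13 fell, with a median of -0.49 where siSCD#1 gave 0.39, and of the degradation class 11 rose and 1 fell, with a median of 0.40 where siSCD#1 gave 0.89. The difference between the siRNAs was not tested. HSPA5 itself changed by -0.26 ± 0.09 with siSCD#2 and by 1.65 ± 0.08 with siSCD#1 in IGR37, each past the threshold of its fit.

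The ER stress element, CCAAT and CCACG separated by 9 bases, stood in promoter windows of 0.164% of the 9775 matched genes and of 8 of the 39 matched members of the ER list, on either strand. A pair of genes that rose (HSPA5 and XBP1) and a pair that fell (CALR and PDIA6) hold it, and their sequences are shown because genes of both directions hold the element. Capitals mark the element from its first to its last base, on the gene's strand 5' to 3'. In CALR it lies on the opposite strand.
HSPA5: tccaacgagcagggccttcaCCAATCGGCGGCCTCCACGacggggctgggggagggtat
XBP1: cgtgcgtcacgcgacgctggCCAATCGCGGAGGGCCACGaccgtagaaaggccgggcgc
CALR: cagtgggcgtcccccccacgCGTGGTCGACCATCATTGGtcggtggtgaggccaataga
PDIA6: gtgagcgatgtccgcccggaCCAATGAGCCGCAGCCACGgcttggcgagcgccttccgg
They lie at chr9:125241371-125241429 (minus), chr22:28800583-28800641 (minus), chr19:12938364-12938422 (plus) and chr2:10812833-10812891 (minus), on GRCh38.p14.

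Of 20 transfer RNA synthetases, several of which are ATF4 targets, 9 rose (45%, against 20.9% of all genes) and 5 fell (25%, against 22.0%), with a median of 0.23. The falls numbered 3 without control library 1 and 2 under quantile normalisation, with 11 rises there, and the median was -0.01 under spike-in scaling. GARS and SARS, which charge glycine and serine tRNAs, rose by 1.26 ± 0.09, adjusted p = 1.53e-08, and 1.01 ± 0.09, adjusted p = 4.31e-07. FARSA fell by 0.30 (adjusted p = 0.0201). AARS and RARS changed by 0.19 ± 0.13 and -0.06 ± 0.08 and did not pass.

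Of 33 genes of the oxidative stress list 9 rose and 9 fell, 27.3% each, against 20.9% and 22.0% of all genes. The 9 falls became 2 under quantile normalisation, 3 without control library 3, 4 without control library 1, control library 2 or treated library 1, without a variance trend or with thinned reads, and 5 in a fit of the 6 libraries alone. NFE2L2, the factor NRF2, rose by 1.26 ± 0.13, adjusted p = 1.42e-06, and KEAP1, which keeps it unstable, fell by 0.23 (adjusted p = 0.0383). Of 16 NRF2 targets 8 rose and 2 fell. TXNRD1 read 5.58, 5.87 and 5.95 log2 CPM in the 3 control libraries and 7.02, 6.70 and 6.98 in the 3 siSCD#1 libraries. TXNRD1, thioredoxin reductase, had separate groups (1.10 ± 0.12, adjusted p = 3.13e-06), and NQO1, a quinone reductase, rose by 0.76 ± 0.06, adjusted p = 1.14e-07. Of 8 genes of defence against lipid peroxidation 0 rose and 5 fell, among them PRDX1 (-0.64 ± 0.08, adjusted p = 6.78e-06) and PRDX6 (-0.34 ± 0.07, adjusted p = 0.00108), which reduce peroxides. FTH1, the heavy chain of the iron store ferritin, changed by -0.13 ± 0.07 and did not pass.

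Inflammatory genes showed some of the widest changes of the comparison. Of 31 measured genes of the NF-kB list 20 rose and 2 fell, with a median of 1.30. With a pseudocount of 1 CPM, which shrinks the changes of genes with few reads, the counts were the same and the median was 0.67. NF-kB is a family of dimeric factors held in the cytoplasm by IkB proteins. Among its subunits RELB rose by 1.77 ± 0.18, adjusted p = 9.72e-07, and NFKB2 by 1.31 ± 0.29, adjusted p = 0.00181, whereas RELA fell by 0.52 (adjusted p = 0.00217). The inhibitors NFKBIA and CYLD rose by 1.39 ± 0.09, adjusted p = 5.81e-09, and 2.08 ± 0.17, adjusted p = 1.61e-07, and TNFAIP3 changed by -0.15 ± 0.11, which did not pass.

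Of 9 secreted members 7 rose. CXCL8 read 0.38, 0.93 and 0.62 log2 CPM in the 3 control libraries and 6.38, 5.94 and 6.50 in the 3 siSCD#1 libraries. CXCL8, interleukin 8, was scarce in the controls and well detected after siSCD#1 (5.63 ± 0.24, adjusted p = 1.12e-10). The levels of CXCL1 were -0.38, -2.18 and -4.24 log2 CPM with siCTR_1 and 2.79, 2.39 and 3.11 with siSCD#1. CXCL1, a related chemokine, also had non-overlapping groups (5.03 ± 0.63, adjusted p = 9.81e-06), but on 5 reads in all controls against 72 in the treated libraries, so that its fold is poorly set. IL32 had 0 reads in the controls and 50 in the treated libraries, at least 24.6-fold higher, taking 3 reads over the control group as the floor. PTGS2, the inducible cyclooxygenase, rose by 1.47 ± 0.27, adjusted p = 0.00038, and SOD2 fell by 0.35 (adjusted p = 0.01).

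The AP-1, early-response and MAPK feedback list gave 24 rises and 4 falls of 38, with a median of 0.61. AP-1 factors are dimers of JUN and FOS proteins that respond to MAP kinase signalling and stress. JUN read 5.02, 5.21 and 4.86 log2 CPM in the 3 control libraries and 7.27, 7.19 and 7.11 in the 3 siSCD#1 libraries. JUN rose in each treated library against each control (2.16 ± 0.12, adjusted p = 1.59e-09), as did MAFF (1.47 ± 0.11, adjusted p = 3.32e-08), and 9 of 11 AP-1 members rose in all. Among early genes, IER3 and KLF6 rose by 1.22 ± 0.07, adjusted p = 1.85e-09, and 1.23 ± 0.09, adjusted p = 3.35e-08. DUSP10, a phosphatase of stress kinases, rose by 2.68 ± 0.24, adjusted p = 3.7e-07, and DUSP4 by 0.80 ± 0.07, adjusted p = 1.38e-07. The 7 genes that report ERK output divided into 3 that rose and 4 that fell. PHLDA1 rose (1.21 ± 0.06, adjusted p = 7.97e-10), whereas ETV5 (-0.92 ± 0.07, adjusted p = 2.91e-08), CCND1 (-0.54 ± 0.11, adjusted p = 0.000661) and HMGA1 (-1.23 ± 0.13, adjusted p = 1.96e-06) fell. DUSP6, an ERK phosphatase, changed by 0.17 ± 0.16 and did not pass. The AP-1 site TGAGTCA stood in promoter windows of 4.76% of all matched genes and of 2 of 26 matched members.

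Cell death and arrest genes rose too, with 19 of 34 higher, 3 lower and a median of 0.73. Of the BH3-only genes, whose proteins oppose BCL2, 5 of 8 rose. BBC3 read 5.81, 5.34 and 5.42 log2 CPM in the 3 control libraries and 7.43, 7.36 and 7.44 in the 3 siSCD#1 libraries. PMAIP1, which encodes NOXA, and BBC3, which encodes PUMA, changed by 1.97 ± 0.19, adjusted p = 6.38e-07, and 1.88 ± 0.11, adjusted p = 1.98e-09. Of 13 arrest genes 8 rose, GADD45B by 2.20 ± 0.11, adjusted p = 4.83e-10, and BTG1 by 1.22 ± 0.08, adjusted p = 8.41e-09. CDKN1B (0.05 ± 0.10) and the p53 targets ZMAT3 (0.09 ± 0.11) and CCNG1 (0.26 ± 0.12) did not pass. MDM2, the p53 ubiquitin ligase, rose by 0.34 ± 0.12, adjusted p = 0.0361. The receptors TNFRSF12A and TNFRSF1A rose by 1.57 ± 0.13, adjusted p = 1.01e-07, and 1.06 ± 0.11, adjusted p = 9.61e-07, and BAK1, a pore-forming member of the BCL2 family, fell by 0.94 (adjusted p = 1.34e-05).

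Interferon-response and MHC class I genes rose in 16 of 38 cases and fell in 1, with a median of 0.33. BST2, which tethers virus particles, rose by 1.60 ± 0.25, adjusted p = 7.79e-05, and HLA-B by 1.11 ± 0.10, adjusted p = 3.34e-07. B2M, the light chain of MHC class I, rose by 0.45 ± 0.09, adjusted p = 0.000725. The 16 rises became 10 under quantile normalisation or without control library 2, and 5 with spike-in scaling.

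**Figure D3:**
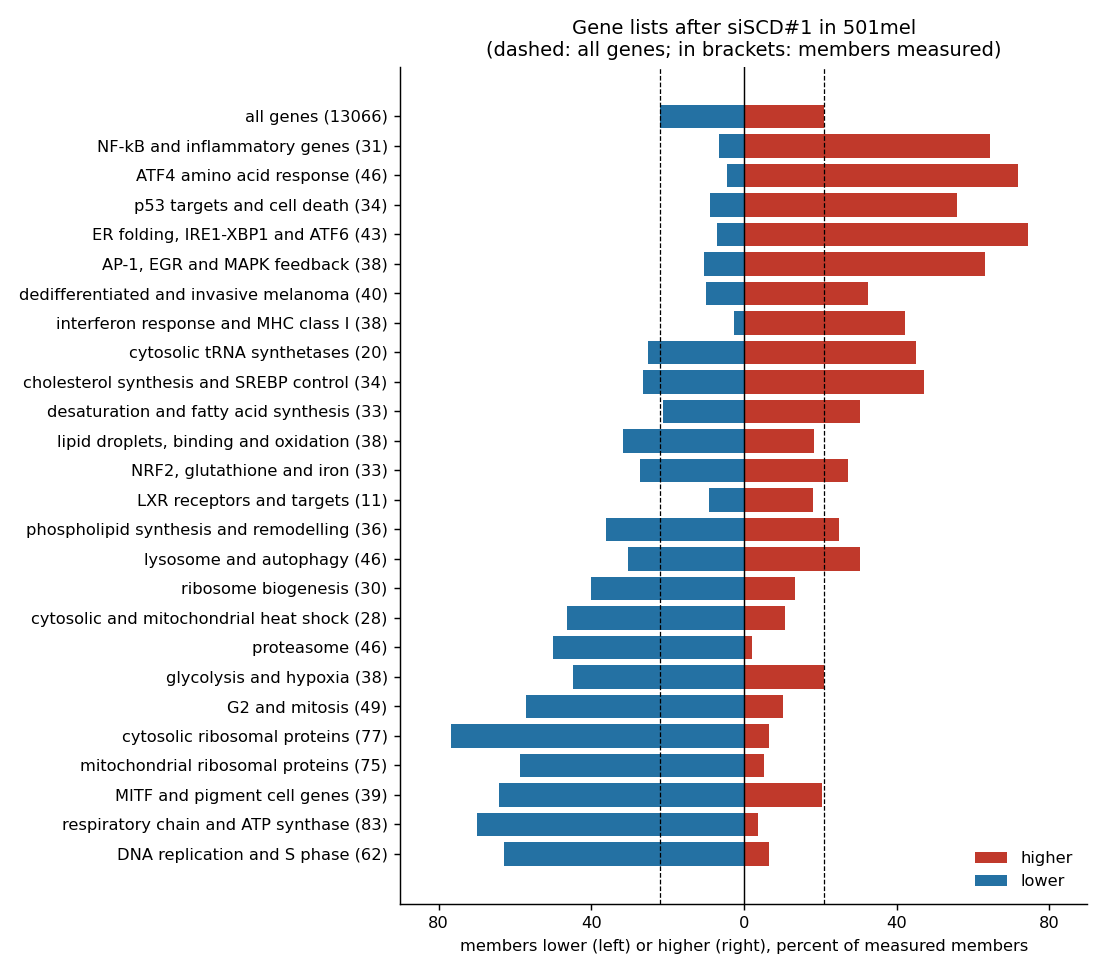
Percent of the measured members of each gene list that rose (right) or fell (left) after siSCD#1 in 501mel, with dashed lines at the 20.9% and 22.0% of all genes. Among the lists drawn, which leave out the short cell type marker lists, ER folding and ATF4 reach furthest to the right and cytosolic ribosomal proteins and the respiratory chain furthest to the left. The falls of the cytosolic ribosomal proteins were far fewer under quantile normalisation, as given below.

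MITF and much of the pigment cell programme were lower. MITF read 9.12, 9.06 and 9.01 log2 CPM in the 3 control libraries and 8.0, 7.99 and 7.96 in the 3 siSCD#1 libraries. The control libraries are tightly grouped and all treated libraries lie well below (-1.08 ± 0.06, adjusted p = 1.37e-09). Of the 39 measured genes of the list 25 fell, 8 rose and 6 did not pass, with a median of -0.42. The list gave 5 rises and 23 falls without treated library 3, 7 and 21 with a median of -0.25 under quantile normalisation, and 4 and 27 with a median of -0.67 under spike-in scaling. In a bulk culture, fewer cells of a kind and less RNA per cell cannot be told apart.

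The melanin enzymes fell in 3 of 3 cases. TYR read 8.22, 8.17 and 8.03 log2 CPM in the 3 control libraries and 7.72, 7.55 and 7.41 in the 3 siSCD#1 libraries. TYR is tyrosinase, the first enzyme of melanin synthesis, and its groups do not overlap (-0.58 ± 0.09, adjusted p = 4.5e-05). DCT, dopachrome tautomerase, fell by 0.50 (adjusted p = 5.19e-05). Of 16 melanosome proteins 10 fell and 0 rose. The levels of TRPM1 were 5.45, 5.40 and 5.41 log2 CPM with siCTR_1 and 3.73, 3.31 and 3.39 with siSCD#1. TRPM1, a melanocyte cation channel and known MITF target, was lower in each treated library (-1.95 ± 0.11, adjusted p = 2.61e-09), and SLC45A2, a melanosome transporter, fell by 1.06 (adjusted p = 7.31e-09). GPNMB (-0.13 ± 0.07) and RAB38 (0.22 ± 0.24) did not pass.

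Receptors of the lineage divided. KIT read 8.81, 8.53 and 8.61 log2 CPM in the 3 control libraries and 6.70, 6.84 and 6.68 in the 3 siSCD#1 libraries. KIT, the receptor of stem cell factor, fell by 1.91 (adjusted p = 2.12e-08), with no overlap between groups. EDNRB, the endothelin receptor, rose by 0.89 ± 0.09, adjusted p = 1.38e-06. CITED1, a transcriptional coregulator, rose by 1.61 ± 0.12, adjusted p = 2.91e-08. Of 8 lineage factors 4 rose, TFAP2A by 0.83 ± 0.08, adjusted p = 1.18e-06, and 4 fell. MLANA, the melan-A antigen, fell by 0.78 (adjusted p = 1.17e-07), and S100B rose by 0.39 ± 0.09, adjusted p = 0.00205.

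The M-box TCATGTG, an extended E-box that MITF binds, stood in promoter windows of 2.76% of the 9775 matched genes and of 8 of 31 matched genes of the pigment list. Its share was 2.86% of the genes that rose and 2.81% of those that fell, both near that of all matched genes. TYR and GPNMB are shown because both hold it while TYR fell and GPNMB did not pass. Capitals mark the matches, 5' to 3' on the gene's strand. Both matches in GPNMB lie on the opposite strand.
TYR: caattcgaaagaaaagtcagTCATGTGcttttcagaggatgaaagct
GPNMB: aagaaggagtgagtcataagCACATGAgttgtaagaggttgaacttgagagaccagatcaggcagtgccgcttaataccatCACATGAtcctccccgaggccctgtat
They lie at chr11:89177750-89177796 (plus) and chr7:23246632-23246739 (plus), on GRCh38.p14.

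Genes of dedifferentiated and invasive melanoma rose in 13 of 40 cases and fell in 4, with a median of 0.55. These are 32.5% and 10%, against 20.9% and 22.0% of all genes, and 23 were not called. The counts were 7 and 6 under spike-in scaling. The median was 0.16 with a pseudocount of 1 CPM, 0.27 without control library 3 and 0.35 without treated library 3, so its size depends on genes with few reads and on single libraries. AXL, a receptor kinase of that state, had 39 reads in the controls and 36 after siSCD#1 and changed by 0.61 ± 0.52 (adjusted p = 0.372), so no difference was detectable at this depth. WNT5A, a ligand tied to invasion, rose by 2.43 ± 0.42, adjusted p = 0.000219, VIM, vimentin, by 0.79 ± 0.11, adjusted p = 2.23e-05, ZEB2 by 0.53 ± 0.08, adjusted p = 9.84e-05 and TEAD1, a partner of YAP, by 0.78 ± 0.12, adjusted p = 6.54e-05. FN1, fibronectin, fell by 0.48 (adjusted p = 0.000228), and MET, the receptor of hepatocyte growth factor, by 0.44 (adjusted p = 0.00197). SNAI2 changed by -0.25 ± 0.11, which did not pass.

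DNA replication genes fell. Of 62 measured members 39 fell and 4 rose, with a median of -0.50. Of 17 members of the origin and helicase class 12 fell, led by GINS1. GINS1 read 7.28, 7.36 and 7.30 log2 CPM in the 3 control libraries and 4.27, 4.38 and 3.94 in the 3 siSCD#1 libraries. It had the largest fall of the list (-3.11 ± 0.12, adjusted p = 4.05e-11). MCM4, a helicase subunit, fell by 0.74 (adjusted p = 1.1e-06), and MCM3 changed by 0.06 ± 0.18, which did not pass. The levels of RRM2 were 7.85, 7.96 and 8.05 log2 CPM with siCTR_1 and 6.89, 6.92 and 6.90 with siSCD#1. RRM2, the regulated subunit of ribonucleotide reductase, had separate groups (-1.05 ± 0.08, adjusted p = 5.88e-08). E2F1 and CCNE1, which drive entry into S phase, fell by 1.39 and 1.84 (adjusted p = 6.11e-08 and 1.04e-07). FEN1 (-0.20 ± 0.11), a flap nuclease, and DNMT1 (0.15 ± 0.09) did not pass. The E2F sites TTTCCCGC and TTTGGCGC stood in promoter windows of 3.35% and 1.37% of all matched genes, and each in those of 12 of 51 matched genes of this list.

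Mitotic genes fell in 28 of 49 cases and rose in 5, with a median of -0.35, and the rises numbered 3 without control library 1 or treated library 3 and 0 under spike-in scaling. AURKA read 8.57, 8.54 and 8.47 log2 CPM in the 3 control libraries and 7.50, 7.42 and 7.59 in the 3 siSCD#1 libraries. AURKA, the spindle pole kinase, fell by 1.02 (adjusted p = 8.54e-07), with all treated libraries below all controls. CDC25B, BIRC5 and ZWINT fell by 0.92, 0.80 and 0.99 (adjusted p = 1.04e-07, 3.01e-07 and 2.65e-07), and MKI67, the proliferation antigen, by 0.50 (adjusted p = 0.000396). PRC1 (0.25 ± 0.10), a spindle midzone protein, did not pass, and SMC4, a condensin subunit, rose by 0.42 ± 0.09, adjusted p = 0.00133. In IGR37 56 of the 62 replication genes and 49 of the 49 mitotic genes fell, with medians of -0.92 and -0.96. The change was less negative in 501mel for 31 of the mitotic genes by the test of the difference.

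Mitochondrial genes fell together. Of 83 nuclear-encoded subunits of the respiratory chain and ATP synthase 58 fell and 3 rose, with a median of -0.48, and of 75 mitochondrial ribosomal proteins 44 fell and 4 rose, with a median of -0.41. Under quantile normalisation the medians were -0.29, with 50 falls and 7 rises, and -0.24, with 37 falls and 4 rises. ATP5I read 8.79, 8.74 and 8.81 log2 CPM in the 3 control libraries and 6.76, 6.96 and 7.13 in the 3 siSCD#1 libraries. ATP5I, a small subunit of ATP synthase, is lower in each treated library (-1.83 ± 0.09, adjusted p = 6.69e-10), and ATP5G1, a subunit of its membrane ring, fell by 1.49 (adjusted p = 8.94e-09). UQCRQ of complex III and NDUFA9 of complex I fell by 0.94 and 0.80 (adjusted p = 1.29e-07 and 1.83e-06). The levels of MRPS25 were 8.07, 8.03 and 8.07 log2 CPM with siCTR_1 and 5.96, 6.04 and 6.12 with siSCD#1. The groups of MRPS25, a protein of the small mitochondrial ribosomal subunit, lie far apart (adjusted p = 1.67e-11). COX7A2 (0.05 ± 0.07), of complex IV, did not pass, and MRPL33 rose by 0.67 ± 0.16, adjusted p = 0.00318.

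With siSCD#2, against controls of its own, the respiratory chain list went the other way, with 36 rises, 7 falls and a median of 0.20. ATP5I read 7.76, 8.40 and 8.55 log2 CPM in the controls of siSCD#2 and 9.34, 9.20 and 9.02 with siSCD#2, a change of 0.95 ± 0.23. These libraries lie higher with treatment, where the siSCD#1 libraries lay lower. For the mitochondrial ribosome siSCD#2 gave 10 rises and 31 falls.

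Cytosolic ribosomal proteins showed the same contrast between siRNAs. With siSCD#1 59 of 77 fell and 5 rose, with a median of -0.36. RPL5, of the large subunit, fell by 0.77 (adjusted p = 5.88e-08), and RPL30 rose by 0.32 ± 0.06, adjusted p = 0.000635. With siSCD#2 60 rose and 0 fell, with a median of 0.47. RPL5 changed by 0.47 ± 0.08 there. Under quantile normalisation the siSCD#1 median was -0.03, with 11 rises and 17 falls. Ribosomal protein genes share reads with near-identical pseudogene copies, which the authors' counting could split, so these values are uncertain. Of 30 ribosome biogenesis genes 12 fell (40%, against 22.0% of all genes) and 4 rose (13.3%, against 20.9%). These counts were 10 and 5 under quantile normalisation. NPM1, a nucleolar chaperone, changed by -0.59 ± 0.06.

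Proteasome subunits fell in 23 of 46 cases (50%, against 22.0% of all genes) and rose in 1 (2.17%, against 20.9%). Their median was -0.27 (-0.16 under quantile normalisation). POMP, the proteasome assembly factor, fell by 0.75 (adjusted p = 2.38e-07). Of 28 heat shock genes 13 fell (46.4%, against 22.0% of all genes) and 3 rose (10.7%, against 20.9%). HSPA4 and HSPD1, chaperones of cytosol and mitochondria, fell by 1.30 and 0.53 (adjusted p = 3.59e-09 and 1.14e-05), and HSPA8 (-0.21 ± 0.13) did not pass. Under quantile normalisation the heat shock falls numbered 6 and the rises 7. Lysosome and autophagy genes gave 14 rises and 14 falls of 46 (30.4% each, against 20.9% and 22.0% of all genes). The counts were 15 and 8 under quantile normalisation, and 6 and 20 under spike-in scaling. MAP1LC3B, the autophagosome protein LC3B, rose by 1.01 ± 0.08, adjusted p = 6.11e-08, and ATP6V0D1, a proton pump subunit, fell by 1.25 (adjusted p = 1.3e-07).

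Glycolytic genes fell, with 17 of 38 members of the glycolysis and hypoxia list down, 8 up and a median of -0.33 (19 down and 5 up under spike-in scaling). The median was -0.20 without control library 1, -0.18 without treated library 3 or under quantile normalisation, and -0.13 with thinned reads. Of 17 glycolytic enzymes 11 fell. LDHA read 8.11, 8.16 and 8.06 log2 CPM in the 3 control libraries and 6.92, 6.98 and 6.99 in the 3 siSCD#1 libraries. LDHA, lactate dehydrogenase, has no overlap between groups (-1.14 ± 0.08, adjusted p = 1.62e-08). TPI1 fell by 0.85 (adjusted p = 3.71e-07), and the glucose transporters SLC2A1 and SLC2A3 fell by 0.65 and 0.96 (adjusted p = 1.64e-05 and 7.48e-06). Against the direction, HK2, a hexokinase, rose by 1.08 ± 0.14, adjusted p = 1.51e-05, and MXI1, an antagonist of MYC, by 1.29 ± 0.08, adjusted p = 9.39e-09.

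**Figure D4:**
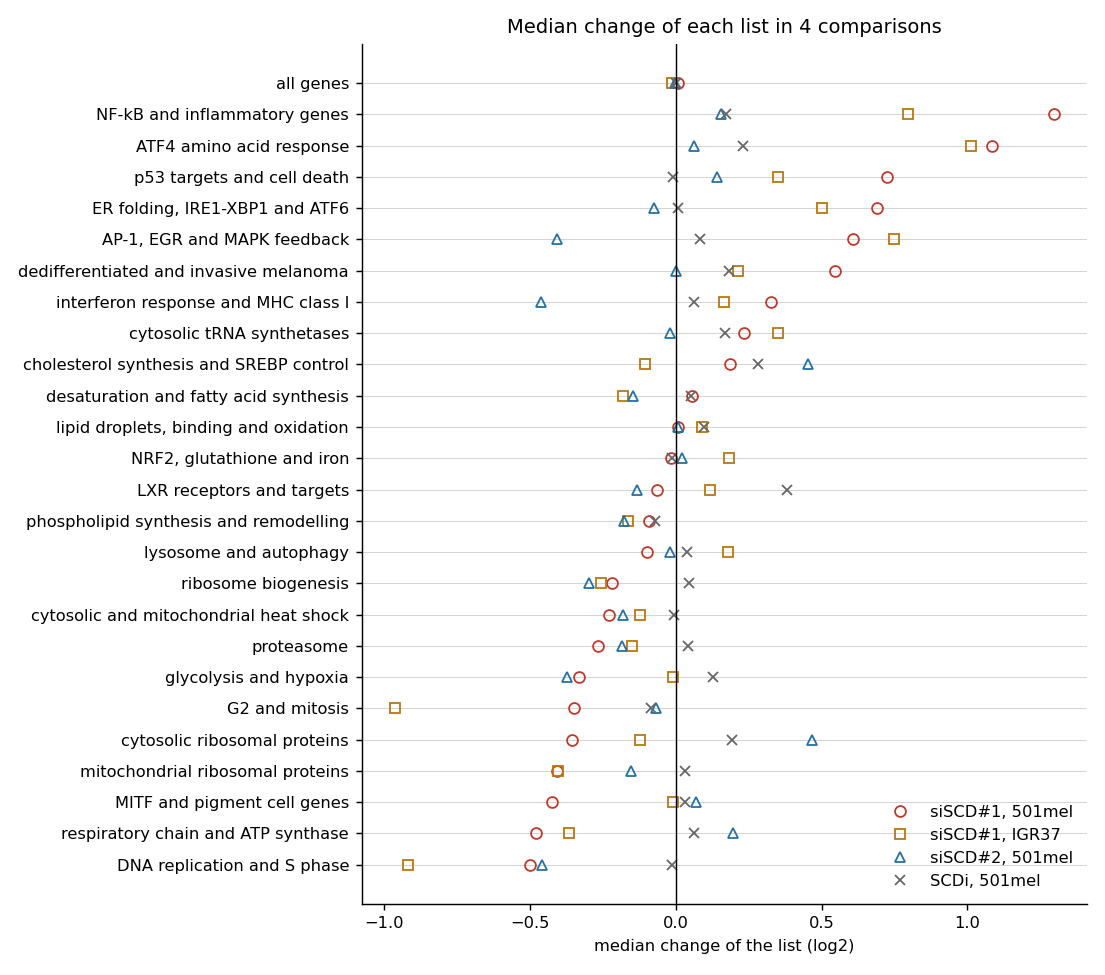
Median log2 change of each list with siSCD#1 in 501mel and IGR37 and with siSCD#2 and the inhibitor in 501mel. The respiratory chain median is -0.48 with siSCD#1 and 0.20 with siSCD#2 in 501mel, and the cytosolic ribosomal protein median -0.36 and 0.47.

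Of 33 genes of desaturation and fatty acid synthesis 10 rose (30.3%, against 20.9% of all genes) and 7 fell (21.2%, near the 22.0% of all genes), with a median of 0.06. These counts became 7 and 3 without control library 1, 8 and 4 with thinned reads, and 5 and 10 under spike-in scaling. The median ran from -0.19 under spike-in scaling to 0.24 with thinned reads. FADS3, of the fatty acid desaturase family, rose by 1.09 ± 0.12, adjusted p = 3.36e-06, whereas FADS1 (0.01 ± 0.08) and FASN (-0.11 ± 0.10), fatty acid synthase, did not pass. ELOVL4, an elongase of very long chains, rose by 1.88 ± 0.43, adjusted p = 0.0021, ME1, malic enzyme, by 1.28 ± 0.19, adjusted p = 4.7e-05, and ACLY, which makes cytosolic acetyl-CoA, by 0.51 ± 0.07, adjusted p = 4.87e-05. ACSL3, which activates fatty acids, rose by 0.85 ± 0.09, adjusted p = 2.32e-06.

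Sterol genes gave 16 rises and 9 falls of 34, with a median of 0.18, which became 6 and 12 with a median of -0.06 under spike-in scaling. The median was 0.29 without control library 3 or treated library 2 and 0.32 under quantile normalisation. INSIG1 read 6.57, 6.56 and 6.42 log2 CPM in the 3 control libraries and 7.33, 7.27 and 7.27 in the 3 siSCD#1 libraries. INSIG1 retains SREBP in the ER, and its treated libraries all lie above its controls (0.77 ± 0.08, adjusted p = 1.12e-06). MSMO1, an enzyme late in cholesterol synthesis, fell by 0.84 (adjusted p = 2.12e-05). SREBF2, the sterol transcription factor, and SCAP, its escort, fell by 0.51 and 0.66 (adjusted p = 0.00012 and 4.31e-05). HMGCS1 changed by -0.09 ± 0.10, which did not pass. Of 11 LXR receptors and targets 2 rose (18.2%, near the 20.9% of all genes) and 1 fell (9.09%, against 22.0%). The fall was APOC1 (-0.79 ± 0.19, adjusted p = 0.00309). LPCAT3, which puts polyunsaturated chains into phospholipids, changed by -0.06 ± 0.16 and did not pass.

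Of 36 phospholipid genes 13 fell (36.1%, against 22.0% of all genes) and 9 rose (25%, against 20.9%). Of the 17 acyl transfer genes among them 9 fell and 5 rose. LPCAT1 read 5.83, 5.57 and 5.77 log2 CPM in the 3 control libraries and 4.53, 4.24 and 4.08 in the 3 siSCD#1 libraries. LPCAT1 adds saturated chains to lysophosphatidylcholine, and its treated libraries lie below its controls (-1.44 ± 0.14, adjusted p = 1.05e-06). AGPAT3 and PTDSS1, a phosphatidylserine synthase, fell by 1.02 and 1.08 (adjusted p = 1.43e-06 and 1.74e-07), and LPIN1, a phosphatidate phosphatase, rose by 0.64 ± 0.13, adjusted p = 0.000968. Of 38 genes of lipid droplets, fatty acid binding and oxidation 12 fell (31.6%, against 22.0% of all genes) and 7 rose (18.4%, against 20.9%). These counts became 14 and 1 under spike-in scaling. SOAT1, which esterifies cholesterol, fell by 1.33 (adjusted p = 3.11e-07), and MGLL, monoglyceride lipase, by 2.43 (adjusted p = 0.000748). PPARGC1A, the coactivator PGC-1alpha, fell by 1.24 (adjusted p = 3.14e-06), and PLIN3 (0.17 ± 0.07), a droplet coat protein, did not pass.

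In IGR37 the same siRNA raised 2181 genes (16.7%) and lowered 2534 (19.4%), against control libraries of that line. Of the 2733 rises in 501mel 1175 were also called higher there (43.0% of the 501mel rises, 53.9% of those in IGR37), and of the 2881 falls 1446 were also lower (50.2% and 57.1%). Opposite calls were 145 genes higher in 501mel and lower in IGR37, and 105 the other way. The difference between the lines passed for 1342 genes with a more positive change in 501mel (10.3%) and for 1313 with a more negative one (10.0%).

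MITF was among the genes whose change differed. In IGR37 it read 9.29, 9.28 and 9.25 log2 CPM with siCTR_1 and 8.90, 8.93 and 9.0 with siSCD#1, a change of -0.33 ± 0.06. The fall in 501mel was deeper, with a difference of -0.75 ± 0.08, adjusted p = 4.52e-05. Of the 39 genes of the pigment list 10 rose and 13 fell in IGR37, with a median of -0.01, where 16.7% and 19.4% of all genes did. ATF4 read 7.85, 7.85 and 7.88 in the controls of IGR37 and 9.55, 9.85 and 9.61 after siSCD#1, and the difference between the lines was -0.74 ± 0.13, adjusted p = 0.00112. RELB rose further in IGR37 (3.90 ± 0.18), with a difference of -2.13 ± 0.25, adjusted p = 6.8e-05.

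The largest differences with a more positive change in 501mel were GTPBP2 (3.97 ± 0.88), FABP7 (3.73 ± 0.38), ATXN2L (3.49 ± 0.56), RABGGTB (3.20 ± 0.63), EEF1A1 (2.94 ± 0.32) and CERS2 (2.85 ± 0.54), a ceramide synthase. EEF1A1, a translation elongation factor, shares reads with many processed copies and is uncertain. CERS2 read 4.78, 5.82 and 5.61 log2 CPM in the 3 control libraries and 7.46, 7.11 and 7.37 in the 3 siSCD#1 libraries. In IGR37 CERS2 read 7.12, 6.90 and 6.72 with siCTR_1 and 6.14, 4.76 and 7.0 with siSCD#1. Its control libraries in 501mel and its treated libraries in IGR37 are widely spread. Those with a more negative change in 501mel were, after RELB, IQCE (-1.79 ± 0.12), DNER (-1.77 ± 0.18), SLC37A2 (-1.76 ± 0.21), PPM1K (-1.71 ± 0.27) and ST3GAL1 (-1.65 ± 0.18), a sialyltransferase. The levels of ST3GAL1 were 6.07, 5.88 and 6.0 log2 CPM with siCTR_1 and 4.55, 5.0 and 4.43 with siSCD#1. ST3GAL1 fell in 501mel and changed by 0.32 ± 0.13 in IGR37.

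**Figure D5:**
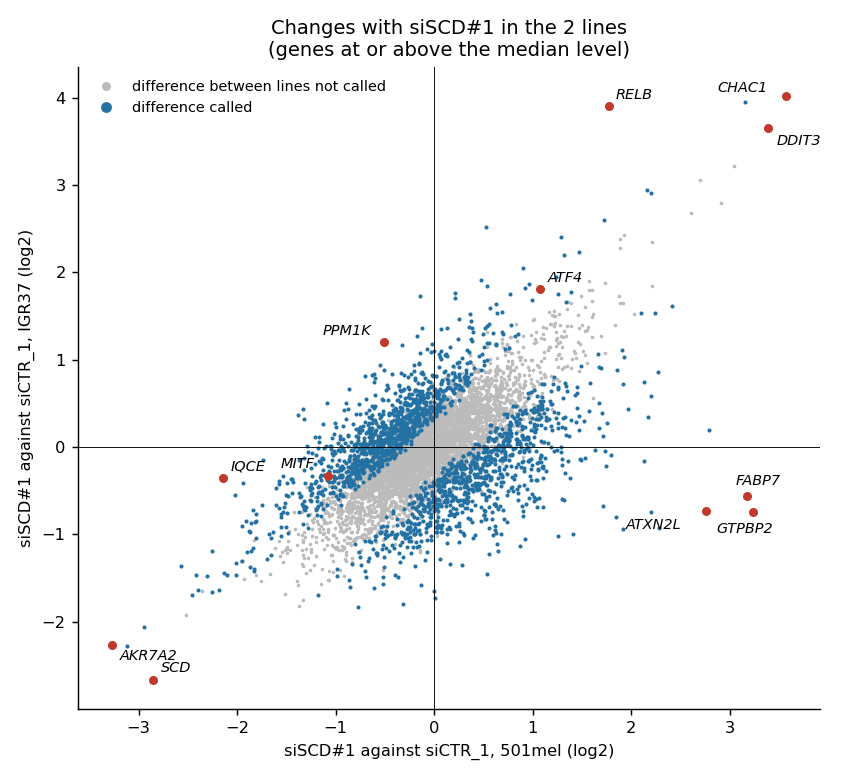
Log2 change with siSCD#1 in 501mel (horizontal) and IGR37 (vertical) for genes whose mean level reached the median, coloured by whether the difference between the lines passed the test. SCD lies at -2.85 and -2.67, and MITF at -1.08 and -0.33.

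The second siRNA and the inhibitor were measured in 501mel in the other table, which was normalised separately, so each comparison is given on its own. They share no control library with siSCD#1. The siSCD#2 libraries gave 2447 rises (18.3%) and 2612 falls (19.5%) of 13364 genes. Over the 12896 genes in both tables, 923 rises were shared (34.2% of those with siSCD#1, 38.1% of those with siSCD#2) and 1039 falls (36.1% and 40%). Opposite calls were 338 genes higher with siSCD#1 and lower with siSCD#2, and 369 the other way. The inhibitor gave 31 rises (0.232%) and 8 falls (0.0599%), and 23 of the 31 also rose with siSCD#1.

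Part of the ATF4 response appeared with each reagent. ASNS, SESN2 and CHAC1 changed by 1.30 ± 0.16, 2.12 ± 0.15 and 1.56 ± 0.24 with siSCD#2 and by 0.88 ± 0.16, 1.45 ± 0.15 and 1.16 ± 0.24 with the inhibitor, all past the threshold. DDIT3 changed by 0.35 ± 0.15 with siSCD#2, which did not pass, and of the ATF4 list 16 genes rose and 8 fell there. CXCL8 changed by 1.28 ± 0.33 with siSCD#2. MITF changed by -0.35 ± 0.08 with siSCD#2, past the threshold, and by -0.02 ± 0.08 with the inhibitor, which did not pass. With siSCD#2 KIT and TYR, both lower with siSCD#1, changed by 0.01 ± 0.15, which did not pass, and 0.56 ± 0.09, a rise. Of the 3 melanin enzymes, TYR among them, 1 rose and 2 fell with siSCD#2, with a median of -0.58. JUN changed by 0.35 ± 0.12, past the threshold, but of its list of 38 genes 8 rose and 16 fell with siSCD#2, with a median of -0.41, and of the 11 AP-1 members 1 rose and 5 fell. HSPA5 was lower as given above. The NF-kB list gave 7 rises and 4 falls of 28 with siSCD#2, and the interferon list 4 rises and 13 falls of 37. The pigment list as a whole gave 12 rises and 11 falls with siSCD#2, and the replication list 2 rises and 40 falls. Beside these list counts, 18.8% of the genes in both tables rose and 20.1% fell with siSCD#2.

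The control libraries held 4146308 to 5986834 gene reads and the treated ones 2897808 to 3285909, so depth moved with treatment. With the reads of each library thinned to the 2402788 of the shallowest in the table, 2432 genes rose and 2401 fell. A count of 0 reads allows a level of up to 0.506 to 0.742 CPM in the controls and up to 0.820 to 0.921 CPM in the treated libraries, a limit for counting error only. Spike-ins took 3.76 to 4.29% of reads in the controls and 5.13 to 5.71% in the treated libraries. Over the 29 spike-ins with at least 100 reads a library on average, changes ran from -2.45 to 1.53. Of these, 8 were lower by over 1, 14 were higher by over 0.5, and 27 had the same sign in IGR37. The 9 melanocytic marker genes are all in the table and summed to 4298 to 4484 CPM in the controls and 3061 to 3128 in the treated libraries. Of 8 epithelial markers 1 is in the table (15.6 to 21.3 and 14.5 to 17.3 CPM), of 8 fibroblast markers 2 (2.33 to 3.54 and 5.52 to 6.56 CPM), and of 8 blood and endothelial markers 2 (0 to 0.179 and 0.273 to 0.614 CPM). The part of depth, spike-in share and these markers in the results was not tested.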

How the data were processed

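Transcript 3' ends were measured in 36 QuantSeq Forward libraries, and 6 of them form the comparison. The submitters' processing notes name STAR, edgeR and hg38 without versions, and the annotation, counting rules and use of strand are not given in the sources used here, so reads of overlapping or antisense genes may not be told apart. The authors deposited log2 values in 2 separately normalised tables. They behave as log2 CPM with a prior count of 0.25, and all gave whole reads within 0.05 reads, so a fold of a gene with few reads is understated.

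The deposited log2 values of the 12 libraries of siSCD#1 and siCTR_1 in both lines were fitted with limma 3.58.1 in R 4.3.3 (1 coefficient per group, moderated variances with a trend over level), with two-sided p-values adjusted by Benjamini-Hochberg over 13066 genes. The other table of 24 libraries was fitted alike on 13364 genes. The fit was tested on simulated data. Members and lists were chosen with earlier results of these data known. Genes named are SCD, MITF, ATF4 and AXL, the 12 largest rises and falls whose level reached the median and whose groups do not overlap, up to 2 members of each role of a list with the smallest adjusted p and up to 3 that moved against it or did not pass, and the 6 largest differences between lines each way. Some of these are not reported here. The symbols of 12349 genes matched GENCODE 29, which gave identifiers, hg38 coordinates and 3'UTRs (1 transcript a gene).

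Alternatives were other samples in the fit, no variance trend, other filters, a pseudocount, other scalings, a replicate block and leaving out each library. Voom weights and thinning of reads to the shallowest library were chosen after seeing the data.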

Additional observations from a re-analysis of the deposited data

Results flagged for a closer look

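The effect of siSCD#1 differed between 501mel and IGR37 by the limma test of the difference itself for 1342 genes with a more positive and 1313 with a more negative change in 501mel. Among genes named in the report, MITF differed by -0.75 ± 0.08 and ATF4 by -0.74 ± 0.13 on the log2 scale, 501mel minus IGR37. GTPBP2 differed by 3.97, FABP7 by 3.73, ATXN2L by 3.49, RABGGTB by 3.20, EEF1A1 by 2.94 and CERS2 by 2.85. RELB differed by -2.13, IQCE by -1.79, DNER by -1.77, SLC37A2 by -1.76, PPM1K by -1.71 and ST3GAL1 by -1.65. MITF fell in both lines and ATF4 and RELB rose in both, so that for these 3 genes the size of the change differed. Of the rest, IQCE had the same sign in both lines and the others had opposite signs. These signs are given whether or not the change in IGR37 passed the threshold. The IGR37 changes were -0.74 for GTPBP2, -0.57 for FABP7, -0.74 for ATXN2L, -0.92 for RABGGTB, -0.75 for EEF1A1 and -0.94 for CERS2. They were 0.44 for DNER, 0.37 for SLC37A2, 1.20 for PPM1K and 0.32 for ST3GAL1. FABP7, GTPBP2, ATXN2L and CERS2 also differed by over 1 between libraries 2 and 3 of siSCD#1 in IGR37. This gap is not given here for RABGGTB or EEF1A1.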

How the results depend on the processing

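The only alternative that moved a count of all genes past 1.5 times its value was scaling to the spike-in sum. It gave 1242 rises, 626 rises and 1190 falls of at least 2-fold, and, for the difference between the lines, 512 genes higher and 575 lower in 501mel. With each library left out in turn, rises numbered 2267 to 2958 and falls 2458 to 3059, 2-fold rises 911 to 1073 and 2-fold falls 549 to 657, differences 932 to 1532 higher and 930 to 1490 lower, and the SCD change was -2.91 to -2.80. Equal replicate numbers did not pair the libraries (residual correlations of 0.016, -0.069 and -0.036 in 501mel), and with the replicate block 2589 genes rose and 2770 fell. Of 4093 values of the 178 named genes under the alternatives, 41 no longer passed and 27 newly passed, and 0 changed direction after being called. The planned edgeR and DESeq2 tests on recovered reads were not run. Limma with voom weights on those reads, added after seeing the data, gave 2881 rises and 2974 falls. Treated libraries were shallower than controls, which limits genes near 1 CPM.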
